A study of Mus musculus with 24 samples.

Results

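The 45 genes described here act in protein synthesis, as the initiation factors apart from eIF2 and its exchange factor eIF2B, the elongation and release factors, and the eIF4E-binding proteins (4E-BPs). They were chosen by gene symbol from the 24421 genes of the count table. All 45 have a line in it, and 44 passed the filter on low counts. Eif3j1, with 1 count over all libraries, did not. The cells are MIN6, a mouse insulinoma line that makes and secretes insulin, grown in medium with 22.2 mM glucose and transfected with a plasmid for EIF2A-GFP or, as control, for GFP. In each construct, thapsigargin at 1 µM acted for 1 or 3 h, and cells given the vehicle DMSO stand as 0 h. This gave 6 groups of 4 libraries of polyadenylated RNA, named here EIF2A or GFP at 0, 1 or 3 h. By its title, the study concerns EIF2A as a protector of beta cells under stress of the endoplasmic reticulum (ER), which thapsigargin sets off by emptying the ER of calcium. All groups are 1 cell line, and no source used here gives the share of cells that took up a plasmid. Since the vehicle libraries are labelled 0 h only, effects of elapsed time cannot be told apart from those of thapsigargin.

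Most mRNAs are translated after the factor eIF4E binds the cap at their 5′ end. With the scaffold eIF4G and the helicase eIF4A it forms eIF4F, which draws in the small ribosomal subunit that carries eIF3, eIF1, eIF1A, eIF5 and the initiator tRNA on eIF2. The subunit scans to a start codon, eIF5B joins the large subunit, eEF1A and eEF2 drive elongation, and eRF1 and eRF3 release the chain. ER stress shuts down much of this through phosphorylation of eIF2, and 4E-BPs, which bind eIF4E unless the kinase mTORC1 phosphorylates them, give a separate brake at the cap. In beta cells, Eif4ebp1 is known as a target of ATF4, the transcription factor made when eIF2 is phosphorylated. EIF2A, the protein on the plasmid, can bring initiator tRNA to the ribosome and is not a subunit of eIF2.

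Depth ran from 10.5 to 22.1 M counts per library in EIF2A and from 16.7 to 22.2 M in GFP. Values are in CPM, the counts in each M of a library's total after scaling by edgeR's TMM. Of the beta cell markers, 10 of 10 had counts. Their sum was 55282.0 to 65707.8 CPM in EIF2A at 3 h, against 91760.5 to 111565.7 CPM at 0 h, and 43697.1 to 63630.3 CPM in GFP at 3 h, against 81531.2 to 105616.0 CPM at 0 h. It thus moved with the 3 h results, and its part in them was not tested. Marker sums were at most 925.1 CPM for alpha cells, 9.03 for macrophages and 5.74 or less for delta, acinar, endothelial and mesenchymal cells. Ddit3, which encodes the stress factor CHOP, rose at 3 h by 1.70 ± 0.28 in EIF2A and 2.03 ± 0.28 in GFP (log2 fold change ± SE, adjusted p = 5.11e-05 and 9.44e-06). The plasmid's gene goes against the labels in replicate 1: Eif2a stood at 80.3, 96.9 and 104.3 CPM at 0, 1 and 3 h in the libraries labelled EIF2A, against 269.4, 361.2 and 358.1 CPM in those labelled GFP. In replicates 2 to 4 it stood at 134.0 to 208.9 CPM in EIF2A and at 77.8 to 101.9 CPM in GFP. Groups are kept as labelled, EIF2A and GFP stand for the libraries labelled so, and results are given with and without replicate 1. The labels do not say that replicates are separate cultures, so p-values measure the spread between these libraries, which may be technical.

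The members took 1.59, 1.76 and 1.80% of all counts at 0, 1 and 3 h in EIF2A and 1.59, 1.73 and 1.77% in GFP. Over the 24 libraries this share lay between 1.57 and 1.87%. The next levels are means over these libraries per kb of exon. The elongation factors Eef1a1 and Eef2 led at a mean of 1230.8 and 775.9 CPM per kb, followed by Eif1 at 350.2 and Eif5a at 217.3. Of the 50-base windows in Eef1a1 exons, 39.4% also lie in other genes, so some of its reads may be split. Most eIF3 subunits lay close together, with 11 of the 12 measured ones between 38.6 and 136.2 CPM per kb and Eif3e at 22.2. Eif4e, the cap-binding protein, was low at 18.7 CPM per kb, under the 58.4 of its inhibitor Eif4ebp1 and the 54.0 of its scaffold Eif4g1. Lowest were Eef1a2, the eEF1A form of neurons and muscle, at 8.25, Eif4ebp2 at 3.24 and Eef2k, the kinase that inhibits eEF2, at 1.4. These are mRNA levels and say nothing of the amount of protein.

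Thapsigargin moved these mRNAs in both directions. A gene is called here, and said to rise or fall, at a Benjamini-Hochberg adjusted p under 0.05 in edgeR's quasi-likelihood test. At 1 h, 6 of 44 rose and 0 fell in EIF2A, where 10.5% of all 13761 genes tested were called, 6.55% as higher and 3.94% as lower. In GFP 5 rose and 0 fell at 1 h, where 8.18% were called, 5.78% as higher and 2.39% as lower. At 3 h, 9 rose and 7 fell in EIF2A (36.2% of all genes called, 19.6% higher and 16.6% lower), and 10 rose and 8 fell in GFP (33% called, 18.4% higher and 14.6% lower). The counts at 3 h, 16 and 18 of 44, are near those backgrounds. Scaling by library totals alone raised the median of all genes at 3 h by 0.16 in EIF2A and 0.12 in GFP and gave 12 risen and 5 fallen members in each. The median log2 fold change of members was 0.09 in EIF2A and 0.06 in GFP at 1 h, and -0.06 and -0.07 at 3 h, against medians between -0.02 and 0.00 over all genes. The only member with a fold change past 2 was Eif4ebp1, in both constructs at 3 h. In bulk RNA, fewer cells with an mRNA and less of it per cell cannot be told apart.

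Within a construct, deviations from group means correlated between same-numbered libraries, mostly through replicate 1. Each contrast was therefore also fitted with the replicate number as a block. For replicates 2 to 4, r was 0.51 to 0.704 with the same number and 0.426 to 0.68 with the closest other number. Among these replicates alone, same-number r was -0.026 to 0.22, so there the block has little pairing behind it. The blocked counts were 21 risen and 8 fallen in EIF2A and 13 and 9 in GFP at 1 h (45.3 and 44.6% of all genes called). At 3 h they were 13 and 14 in EIF2A and 15 and 19 in GFP (66.2 and 67.1% called). Over all genes the block called 21.9% higher and 23.3% lower in EIF2A and 22.9 and 21.6% in GFP at 1 h. At 3 h these shares were 32.9 and 33.3% in EIF2A and 33.6 and 33.5% in GFP. Blocked counts of the lists below stand against these shares. Every unblocked member call was also called with the block. Without replicate 1 and with no block, 17 rose and 7 fell in EIF2A at 1 h (42% of all genes called, 20.2% higher and 21.8% lower) and 10 and 7 in GFP (39.4% called, 21.2% higher and 18.2% lower). At 3 h, 10 rose and 13 fell in EIF2A (62.6% called, 31.2% higher and 31.4% lower) and 14 and 17 in GFP (63% called, 32.2% higher and 30.8% lower).

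**Figure D1:**
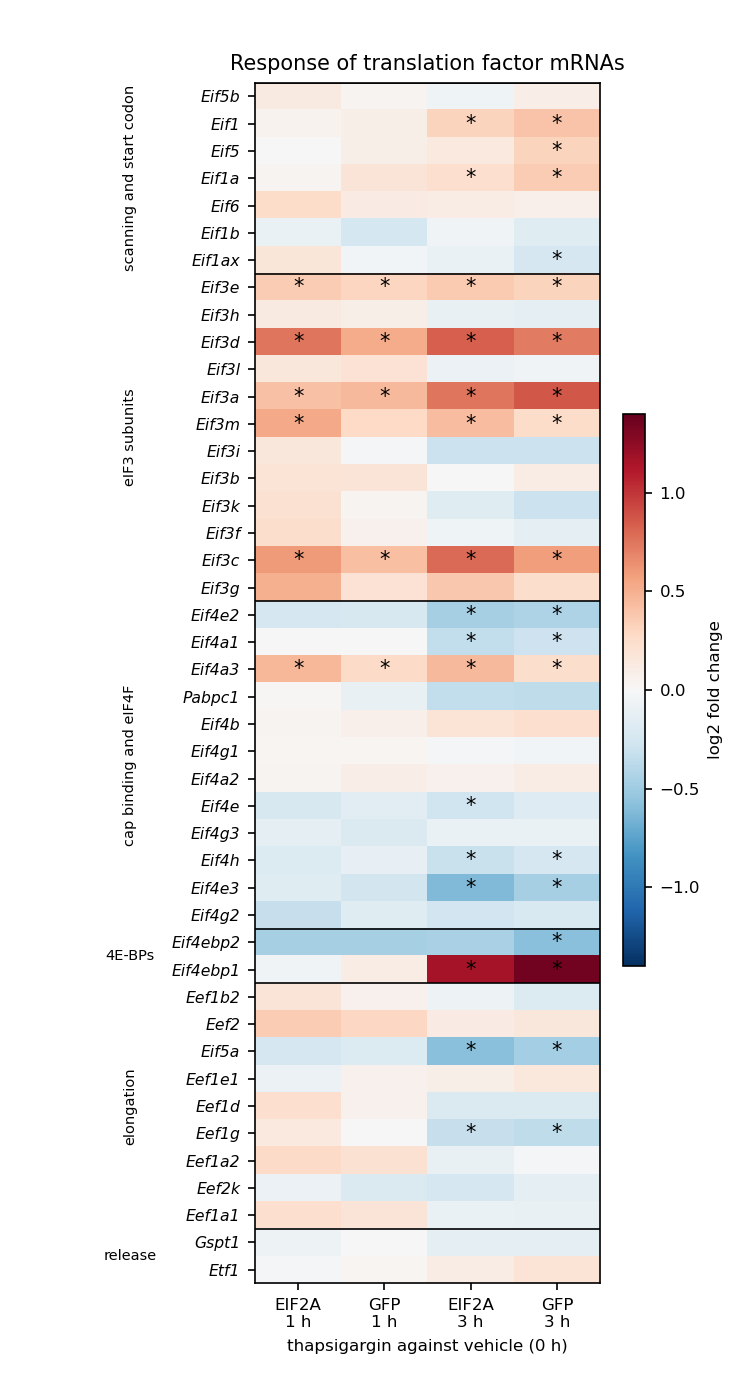
Log2 fold change of 44 translation factor mRNAs (rows, grouped by role) after 1 or 3 h of thapsigargin against vehicle, in EIF2A and GFP libraries (columns, n = 4 per group), red for higher and blue for lower than vehicle, with stars at adjusted p under 0.05. Stars at 1 h sit on 6 mRNAs, all red, while at 3 h the eIF3 rows are partly red and the cap-binding rows partly blue.

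The promoters of members that moved in both constructs were read from RefSeq (build GRCm38.p6), 250 bases before each gene's start, where 33 of 45 members had an entry. The motifs searched, on both strands, were CACGTG, the E-box read by Myc and its relatives, ACTTCCG, the core read by ETS factors, and TGATGNAA, the element of ATF4 with its C/EBP partners. CACGTG lay in 10 of the 33 (30.3%), against 6.86% of 27025 genes, and ACTTCCG in 5 (15.2%, against 5.58%). TGATGNAA lay in 1, that of Eef2k (3.03%, against 3.91%). The 27025 genes include genes not expressed in these cells, unlike nearly all members. Shares among the 13761 genes tested were not computed, so no enrichment is shown. Eif4ebp1 had no entry, so its promoter was not searched, nor were those of Eif1a, Eif3e, Eif4e3 and Eef1g. Of the members that rose in both constructs at 3 h, 6 had a promoter and 0 of these held CACGTG. Of those that fell in both, 4 had one and 3 held CACGTG. The ETS core split in much the same way, lying in 3 of these 4 and in 1 of the 6 that rose. The share of either motif among all genes that rose or fell was not computed. These few genes thus have no background to stand against, and a link of motif to direction was not tested. A match describes letters in this window and does not show that a factor binds. The bases before the start are shown for Eif3a and Eif3d, which rose at both times, and the 40 bases around an E-box for Eif4a1, Eif5a and Eif4h, which fell, and for Eif4g1 and Eef2, which did not fall at 1 or 3 h, with or without the block. Starts are those of RefSeq: the Eif4g1 and Eif5a windows lie inside the wider span of the gene in the annotation used for exon lengths, and the Eif4h window reaches into it. Capitals mark CACGTG or ACTTCCG.
Eif3a, chr19:60790694-60790773, minus strand: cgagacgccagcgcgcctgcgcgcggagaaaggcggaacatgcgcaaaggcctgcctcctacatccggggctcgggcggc
Eif3d, chr15:77970825-77970904, minus strand: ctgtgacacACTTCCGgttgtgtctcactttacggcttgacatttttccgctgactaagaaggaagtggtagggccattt
Eif4a1, chr11:69672590-69672629, minus strand: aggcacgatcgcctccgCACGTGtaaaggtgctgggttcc
Eif5a, chr11:69921438-69921477, minus strand: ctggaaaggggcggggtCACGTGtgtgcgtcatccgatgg
Eif4h, chr5:134639483-134639522, minus strand: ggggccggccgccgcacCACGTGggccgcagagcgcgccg
Eif4g1, chr16:20672656-20672695, plus strand: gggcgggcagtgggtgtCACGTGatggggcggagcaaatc
Eef2, chr10:81176571-81176610, plus strand: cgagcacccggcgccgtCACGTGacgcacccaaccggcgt
The Eif3a window holds none of the 3 motifs.

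Subunits of eIF3 made up most of the early rise. This large complex coats the small ribosomal subunit, bridges it to eIF4G and keeps it from rejoining the large one. At 1 h, 5 of 12 measured subunits rose and 0 fell in EIF2A, with a list median of 0.31, and 4 rose and 0 fell in GFP, with a median of 0.20. At 3 h, 5 rose and 0 fell in each, with medians of 0.19 and 0.17. The same 5 were called in both constructs at 3 h, namely Eif3a, Eif3c, Eif3d, Eif3e and Eif3m. Over all genes, the unblocked fit called 10.5 and 8.18% in EIF2A and GFP at 1 h (6.55 and 5.78% higher). At 3 h it called 36.2 and 33% (19.6 and 18.4% higher). With the replicate block, 12 rose and 0 fell in EIF2A and 8 and 0 in GFP at 1 h, while at 3 h 6 rose and 2 fell in EIF2A and 6 and 4 in GFP. The median over subunits at 3 h thus covers genes that rose and others at or under vehicle level.

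Eif3c and Eif3a encode core subunits that hold the complex together. Values of 4 libraries are given from replicate 1 to 4. Eif3c was at 440.3, 504.5, 495.7 and 515.5 CPM in EIF2A at 3 h, against 306.5, 271.5, 272.7 and 282.2 CPM in EIF2A at 0 h. In GFP it was at 462.5, 437.1, 452.6 and 419.2 CPM at 3 h and at 302.5, 297.9, 290.8 and 289.3 CPM at 0 h. All libraries at 3 h lay above all at 0 h in each construct. The log2 fold change was 0.79 ± 0.07 in EIF2A and 0.59 ± 0.07 in GFP (adjusted p = 2.36e-08 and 1.00e-06), after 0.60 ± 0.07 and 0.42 ± 0.07 at 1 h (9.71e-06 and 4.62e-04). Eif3a was at 690.2, 753.8, 772.9 and 710.0 CPM in EIF2A at 3 h, against 431.9, 450.8, 460.8 and 394.7 CPM at 0 h. The GFP libraries stood at 734.8, 847.1, 880.6 and 742.9 CPM at 3 h and at 459.9, 455.2, 421.0 and 422.3 CPM at 0 h. Again no library at 3 h overlapped those at 0 h, and the 1 h libraries, at 544.3 to 641.5 CPM in EIF2A and 556.0 to 640.7 CPM in GFP, lay between. Eif3a rose at 3 h by 0.75 ± 0.08 in EIF2A and 0.87 ± 0.08 in GFP (adjusted p = 3.18e-07 and 7.22e-08), and at 1 h by 0.41 ± 0.08 and 0.45 ± 0.08 (0.00181 and 0.00121). The 1 h calls of Eif3a were lost without replicate 2 or 3 in all groups (0.0627 to 0.0897), and that of Eif3c in GFP without replicate 3 (0.061). Of all 1 h member calls, only that of Eif3c in EIF2A was kept whichever replicate number was left out.

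Eif3d, a subunit known in human cells to bind the cap of some mRNAs itself, was at 297.4, 431.2, 436.0 and 470.2 CPM in EIF2A at 3 h, against 203.7, 218.8, 236.0 and 253.5 CPM at 0 h. GFP libraries had 266.1, 338.5, 334.0 and 356.7 CPM at 3 h and 183.4, 195.9, 193.6 and 205.6 CPM at 0 h. The groups did not overlap, and replicate 1 was lowest of the 4 in each of these groups. Eif3d rose by 0.84 ± 0.15 in EIF2A and 0.73 ± 0.15 in GFP at 3 h (adjusted p = 1.45e-04 and 6.30e-04), and by 0.75 ± 0.15 and 0.52 ± 0.15 at 1 h (0.00267 and 0.0342). The 1 h call in GFP was lost without any 1 of GFP replicates 1 to 4 at 0 h or replicates 2 to 4 at 1 h (adjusted p = 0.0649 to 0.0961). Without replicate 1 in all groups the 1 h values were 0.84 ± 0.06 and 0.56 ± 0.06 (4.86e-09 and 9.67e-07).

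Eif3e and Eif3m moved less. Eif3m was at 108.8, 113.1, 114.3 and 106.3 CPM in EIF2A at 3 h, against 89.6, 84.9, 74.8 and 78.3 CPM at 0 h, with no overlap. It rose by 0.43 ± 0.10 in EIF2A and 0.26 ± 0.10 in GFP at 3 h (adjusted p = 0.00119 and 0.0400), and the GFP libraries at 3 h, 91.1 to 123.0 CPM, overlapped those at 0 h, 79.1 to 98.5 CPM. The GFP call was lost without any 1 of GFP replicates 2 to 4 at 0 h or replicates 1 and 2 at 3 h (adjusted p = 0.0658 to 0.187), and it was 0.15 without GFP replicate 1 at 3 h. It was also lost with RLE scaling, with DESeq2 and with no filter (0.0779, 0.0620 and 0.0641). At 1 h Eif3m rose by 0.53 ± 0.10 in EIF2A (0.00126) and was at 0.28 ± 0.10 in GFP (0.0822), where the block gave 0.28 (8.05e-05). Its exons share 17.2% of their 50-base windows with other annotated genes, mainly the copy Gm7658, so some of its reads may be split. Eif3e rose by 0.37 ± 0.09 in EIF2A and 0.31 ± 0.09 in GFP at 3 h (0.00271 and 0.0112), and by 0.36 ± 0.09 and 0.30 ± 0.09 at 1 h (0.0129 and 0.0417). Its 1 h call was lost in EIF2A without replicate 3 at 0 h (0.0562). In GFP it was lost without any 1 of replicates 2 to 4 at 0 h or 1 to 4 at 1 h (0.0680 to 0.116).

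The other 7 measured subunits, Eif3b, Eif3f, Eif3g, Eif3h, Eif3i, Eif3k and Eif3l, were not called at 1 or 3 h in either construct. Their log2 fold changes at 3 h ran from -0.30 for Eif3i to 0.38 for Eif3g in EIF2A, and from -0.30 for Eif3i and Eif3k to 0.25 for Eif3g in GFP. Eif3g, Eif3i and Eif3k were chosen for mention after their values were seen. With the block, Eif3g rose at 3 h in both constructs, by 0.37 and 0.25 (adjusted p = 1.72e-07 and 6.43e-05). Eif3i fell in both with the block, by 0.30 in EIF2A and 0.31 in GFP (2.72e-05 and 1.95e-05), and so did Eif3k, by 0.18 and 0.30 (0.00346 and 1.02e-05). Eif3i and Eif3g bind each other in the complex together with Eif3b, which was at 0.00 and 0.10 in the unblocked fit. Eif3j1 had 1 count over all libraries, and 36.6% of its windows are shared with the near copy Eif3j2. No level is given for the eIF3j subunit.

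**Figure D2:**
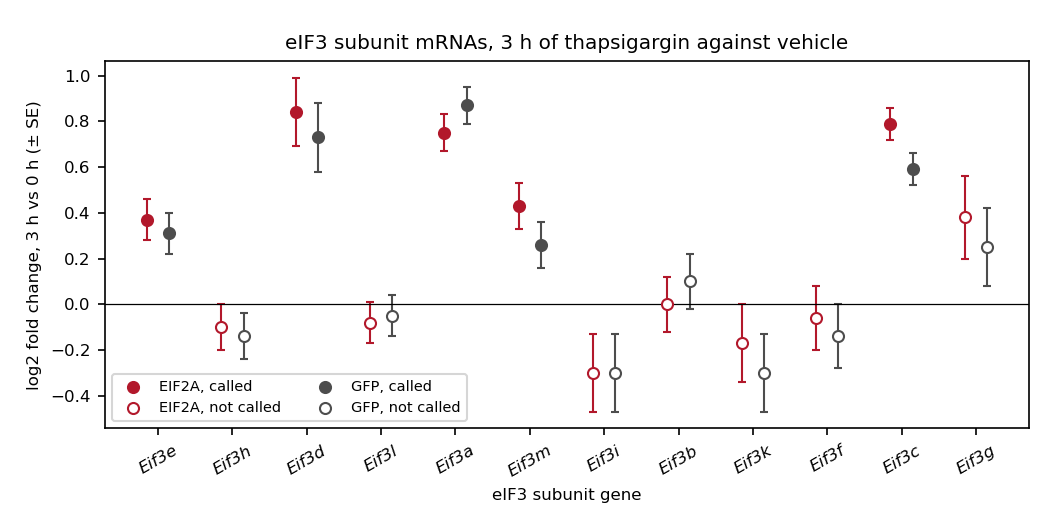
Log2 fold change of 12 eIF3 subunit mRNAs at 3 h of thapsigargin against vehicle, with standard errors, in EIF2A (red) and GFP (grey); filled points have adjusted p under 0.05. The same 5 subunits, Eif3a, Eif3c, Eif3d, Eif3e and Eif3m, have filled points in both constructs, and Eif3i lies lowest in EIF2A at -0.30.

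Of 7 genes listed with scanning and start codon choice, Eif5b and Eif6 included, 0 were called at 1 h in either construct. At 3 h 2 rose and 0 fell in EIF2A and 3 rose and 1 fell in GFP, with medians of 0.10 and 0.09. At 1 h the block and the fit without replicate 1 each gave 2 risen in EIF2A, Eif1ax and Eif6, and in GFP 1 risen and 1 fallen. In GFP the fallen gene was Eif1b in both fits, and the risen one Eif1a with the block and Eif1 without replicate 1. At 3 h the block gave 3 risen and 0 fallen in EIF2A and 3 and 2 in GFP. Over all genes the block called 45.3 and 44.6% in EIF2A and GFP at 1 h and 66.2 and 67.1% at 3 h. The unblocked fit over all replicates called 10.5 and 8.18% at 1 h and 36.2 and 33% at 3 h. The fit without replicate 1 called 42 and 39.4% at 1 h. Eif1, which keeps the scanning ribosome from stopping at poor start codons, was at 835.7, 906.2, 928.3 and 839.2 CPM in EIF2A at 3 h, against 666.6, 714.5, 705.2 and 747.3 CPM at 0 h. In GFP it was at 835.2, 827.0, 817.0 and 788.0 CPM at 3 h and at 836.1, 558.7, 543.4 and 544.1 CPM at 0 h. In GFP, replicate 1 was as high at 0 h as at 3 h, while replicates 2 to 4 at 3 h lay above their 0 h libraries. Eif1 rose by 0.31 ± 0.12 in EIF2A and 0.40 ± 0.12 in GFP (adjusted p = 0.0428 and 0.0114). The EIF2A call was lost without any 1 of EIF2A replicates 1 to 4 at 0 h or 2 to 4 at 3 h (0.0513 to 0.105). Without replicate 1 in all groups the values were 0.30 ± 0.05 in EIF2A and 0.56 ± 0.05 in GFP (1.10e-05 and 3.18e-09). Reads of Eif1 may be split with copies, since 19.2% of its windows lie in other genes too.

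Eif1a, which encodes the partner of eIF1 in scanning, rose by 0.24 ± 0.09 in EIF2A and 0.35 ± 0.09 in GFP at 3 h (adjusted p = 0.0411 and 0.00455). In EIF2A it ranged from 76.4 to 111.2 CPM at 3 h and from 79.2 to 83 CPM at 0 h, so that replicate 4 at 3 h lay under all 0 h libraries. The EIF2A call was lost without any 1 of EIF2A replicates 1 to 4 at 0 h or 1 to 3 at 3 h (0.0539 to 0.167). Without EIF2A replicate 1 at 3 h it was 0.15 (0.167), and without replicate 1 in all groups 0.15 (0.128). Eif5, the activator of eIF2's GTPase at the start codon, was at 469.2, 495.2, 472.4 and 438.7 CPM in GFP at 3 h, against 368.1, 385.0, 383.2 and 377.8 CPM at 0 h. It rose by 0.31 ± 0.07 in GFP (adjusted p = 0.00235) with no overlap, and was at 0.14 ± 0.07 in EIF2A (0.140), which the block took to 0.0171. Eif1ax, the X-linked form of eIF1A, fell by 0.23 ± 0.07 in GFP (0.0150), or was at -0.11 (0.243) with scaling by library totals, and was at -0.09 in EIF2A (0.324). Eif1b, Eif5b, which joins the large subunit, and Eif6, which keeps free large subunits apart, were between -0.17 and 0.10 at 3 h in both constructs and not called. Eif1b fell in GFP with the block and without replicate 1 (-0.17 and -0.13, 0.00417 and 0.0429).

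At the cap, Eif4a1, Eif4h, Eif4e2 and Eif4e3 fell at 3 h in both constructs and Eif4a3 rose. Of 12 genes of cap binding and eIF4F, 1 rose and 5 fell in EIF2A and 1 rose and 4 fell in GFP at 3 h, with medians of -0.28 and -0.19. At 1 h, 1 rose and 0 fell in each. With the block, 2 rose and 7 fell at 3 h and 1 rose and 6 fell at 1 h in each construct. Of all genes the block called 66.2 and 67.1% in EIF2A and GFP at 3 h and 45.3 and 44.6% at 1 h. The unblocked fit called 36.2 and 33% at 3 h (16.6 and 14.6% lower) and 10.5 and 8.18% at 1 h. Eif4a1, the main eIF4A helicase, was at 357.6, 330.3, 335.0 and 338.6 CPM in EIF2A at 3 h, against 396.4, 450.7, 439.2 and 434.8 CPM at 0 h. The GFP libraries stood at 331.0, 299.2, 307.1 and 295.7 CPM at 3 h and at 362.8, 388.0, 385.8 and 371.9 CPM at 0 h. All 3 h libraries lay below the 0 h libraries of their construct, and Eif4a1 fell by 0.34 ± 0.06 in EIF2A and 0.29 ± 0.06 in GFP (adjusted p = 1.02e-04 and 5.28e-04). At 1 h it was within 0.01 of the vehicle level in both. Windows shared with other genes, mostly pseudogenes, make up 28.4% of Eif4a1.

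Eif4h, a cofactor of eIF4A, was at 505.2, 478.3, 494.4 and 543.9 CPM in EIF2A at 3 h, against 591.9, 611.5, 631.5 and 675.2 CPM at 0 h, with no overlap. It fell by 0.31 ± 0.06 in EIF2A and 0.24 ± 0.06 in GFP (adjusted p = 6.48e-04 and 0.00612). The GFP value became -0.12 (0.109) when libraries were scaled by their totals alone. By contrast Eif4a3, a helicase of the same family that sits in the exon junction complex on spliced mRNA, rose at both times. It was at 231.1, 250.2, 256.3 and 294.2 CPM in EIF2A at 3 h, against 203.4, 179.6, 180.2 and 193.6 CPM at 0 h, and rose by 0.45 ± 0.07 (adjusted p = 5.83e-05). In GFP it rose by 0.25 ± 0.07 at 3 h (0.0121), and at 1 h by 0.46 ± 0.07 in EIF2A and 0.27 ± 0.07 in GFP (3.50e-04 and 0.0262). The 1 h call in GFP was lost without any 1 of GFP replicates 2 to 4 at 0 h or 1 to 4 at 1 h (0.0507 to 0.0859). Eif4a2, a near twin of Eif4a1, was at 0.06 and 0.10 at 3 h (0.856 and 0.764).

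Of the cap-binding proteins, Eif4e2 and Eif4e3 fell at 3 h in both constructs and Eif4e in EIF2A. Eif4e2, whose product 4EHP binds the cap but not eIF4G and so represses translation, was at 65.9, 78.4, 84.4 and 91.3 CPM in EIF2A at 3 h, against 85.8, 112.9, 124.6 and 117.9 CPM at 0 h. GFP libraries had 65.7, 66.8, 67.8 and 64.2 CPM at 3 h and 78.7, 95.8, 88.4 and 92.9 CPM at 0 h. The groups overlapped in EIF2A, where replicate 1 was lowest at both times, and not in GFP. Eif4e2 fell by 0.46 ± 0.11 and 0.43 ± 0.11 (adjusted p = 0.00316 and 0.00615). Eif4e3, a minor cap-binding form, fell by 0.62 ± 0.15 in EIF2A and 0.47 ± 0.15 in GFP (0.00243 and 0.0172), the GFP call being lost without GFP replicate 4 at 3 h (0.0588). Eif4e itself was at 116.9, 100.0, 97.0 and 79.3 CPM in EIF2A at 3 h, against 131.1, 120.7, 113.0 and 112.9 CPM at 0 h, and in GFP at 114.5, 117.5, 108.9 and 110.1 CPM at 3 h, against 130.2, 129.7, 129.0 and 122.3 CPM at 0 h. The groups overlapped only in EIF2A, through replicate 1 at 3 h. Eif4e fell by 0.28 ± 0.10 in EIF2A (0.0346) and was at -0.18 ± 0.10 in GFP (0.185), which the block took to 0.00258. The EIF2A call was lost without any 1 of EIF2A replicates 1 and 2 at 0 h or 2 to 4 at 3 h (0.0590 to 0.137), and with scaling by library totals (-0.12, 0.432).

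Eif4g1, the main scaffold of eIF4F, was not called at 1 or 3 h with or without the block, nor without replicate 1. It was at 393.8, 323.7, 325.1 and 373.4 CPM in EIF2A at 3 h and at 426.0, 328.4, 351.6 and 331.3 CPM at 0 h, and in GFP at 330.2, 422.7, 442.7 and 468.7 CPM at 3 h and 339.7, 459.3, 465.7 and 450.7 CPM at 0 h. The times overlapped in each construct, and the log2 fold changes were -0.02 ± 0.13 and -0.04 ± 0.13 (adjusted p = 0.926 and 0.842). Pabpc1, the poly(A)-binding protein that ties the mRNA tail to eIF4G, was at 1008.1, 671.8, 679.2 and 570.9 CPM in EIF2A at 3 h, against 1092.0, 929.8, 934.8 and 754.8 CPM at 0 h. In GFP it was at 885.8, 882.1, 857.0 and 701.6 CPM at 3 h and 933.1, 1155.4, 1093.9 and 1089.5 CPM at 0 h. It was lower at 3 h in 4 of 4 replicates of each construct, at -0.34 ± 0.15 and -0.36 ± 0.15, without a call (0.0880 and 0.0749). The block gave -0.36 and -0.37 (1.11e-05 and 8.82e-06). Eif4b, Eif4g2 and Eif4g3 were at -0.27 to 0.24 at 3 h and not called. With the block, Eif4b rose at 3 h by 0.20 in EIF2A and 0.24 in GFP (adjusted p = 1.55e-04 and 7.13e-06) and Eif4g2 fell by 0.28 and 0.21 (1.19e-04 and 0.00271), and both were also called without replicate 1. Eif4g2 and Eif4g3 fell at 1 h in both constructs in each of these fits.

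Of the members, the 4E-BP genes Eif4ebp1 and Eif4ebp2 moved apart, with both called in the unblocked fit in GFP only. Eif4ebp1, whose product takes eIF4E away from eIF4G, was at 178.4, 233.2, 242.3 and 278.4 CPM in EIF2A at 3 h, against 81.8, 104.5, 108.5 and 121.3 CPM at 0 h. The GFP libraries stood at 165.8, 186.3, 187.2 and 194.3 CPM at 3 h and at 112.4, 55.8, 61.3 and 59.2 CPM at 0 h. All libraries at 3 h lay above those at 0 h of their construct, and GFP replicate 1 at 0 h stood above the other 3 libraries. The rise was 1.16 ± 0.21 in EIF2A and 1.35 ± 0.21 in GFP (adjusted p = 1.86e-04 and 4.86e-05), and without replicate 1 it was 1.17 ± 0.08 and 1.69 ± 0.08 (9.09e-11 and 6.69e-13). It came late: at 1 h Eif4ebp1 was at 79.8 to 119.4 CPM in EIF2A and 63.0 to 111.2 CPM in GFP, with log2 fold changes of -0.05 and 0.10 (0.945 and 0.894). Eif4ebp2, the form that dominates in brain, was at 16.3, 12.2, 12.5 and 13.9 CPM in EIF2A at 3 h, against 26.4, 14.1, 14.6 and 19.5 CPM at 0 h. GFP libraries had 20.4, 17.8, 17.1 and 18.5 CPM at 3 h and 26.3, 26.7, 29.3 and 29.0 CPM at 0 h. The times overlapped in EIF2A and not in GFP, and Eif4ebp2 fell by 0.59 ± 0.18 in GFP (0.0162) and was at -0.45 ± 0.19 in EIF2A (0.0664). The block gave -0.43 in EIF2A (1.50e-04), and scaling by library totals took the GFP call to 0.0618. Per length, Eif4ebp1 at 3 h had a mean level of 106.1 CPM per kb in EIF2A and 83.5 in GFP, and Eif4ebp2 one of 2.37 and 3.19. Eif4ebp3, which is not a member, averaged 23.7 CPM at 3 h and 26.1 CPM at 0 h in EIF2A. In GFP it averaged 15.6 CPM at 3 h and 16.3 CPM at 0 h.

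**Figure D3:**
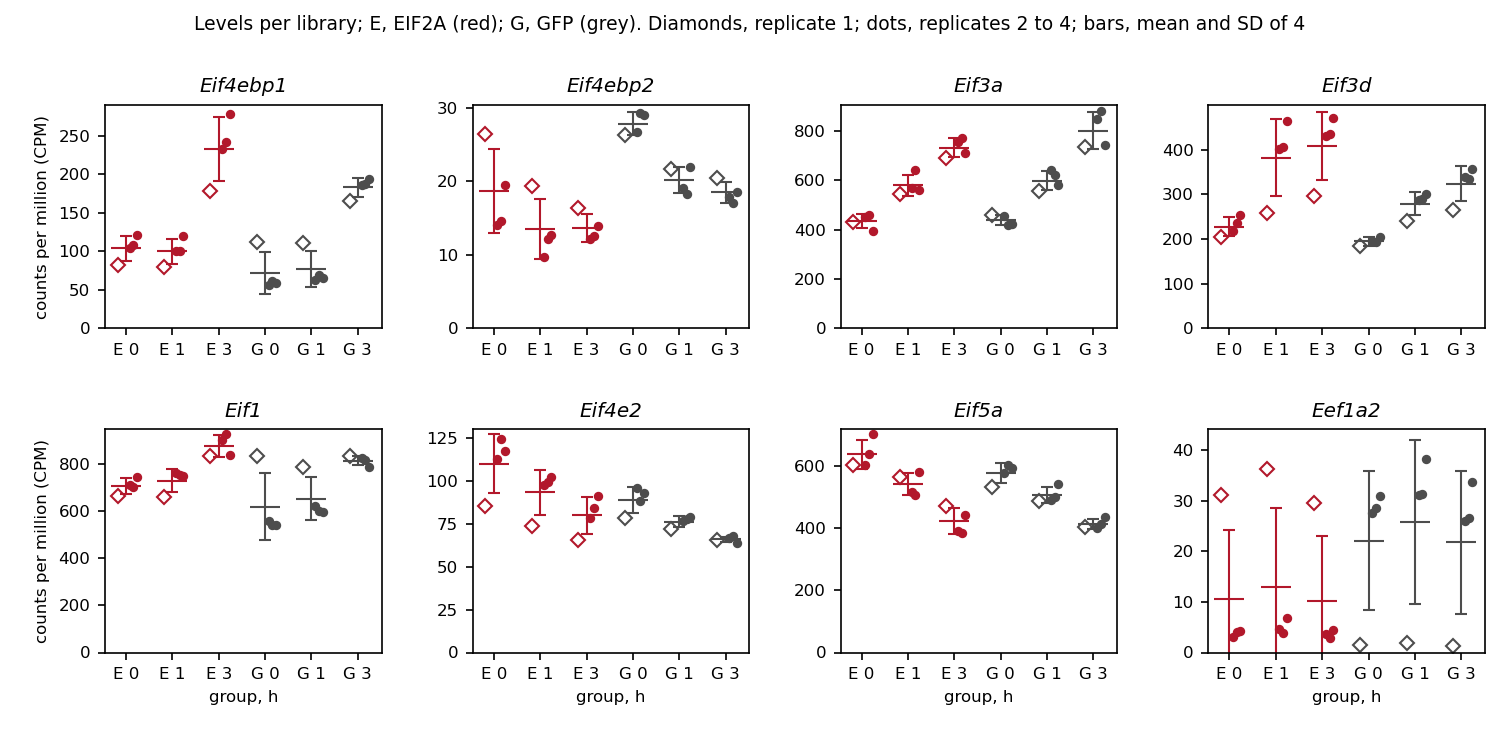
TMM-scaled CPM of 8 members in each library, for EIF2A (E, red) and GFP (G, grey) at 0, 1 and 3 h. With replicate 1 as diamonds, replicates 2 to 4 as dots and the mean and SD of 4 libraries as bars, Eif4ebp1 at 3 h lies above all other times in each construct, while the Eef1a2 diamonds lie opposite to the dots at every time.

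Of 9 genes listed with elongation, the kinase gene Eef2k included, 0 were called at 1 h in either construct. At 3 h 0 rose and 2 fell in each, with medians of -0.10 in EIF2A and -0.13 in GFP. The other fits called more. At 1 h, 6 rose and 1 fell in EIF2A and 3 rose and 1 fell in GFP with the block, and 5 rose and 1 fell in EIF2A and 1 rose and 1 fell in GFP without replicate 1. At 3 h the block gave 1 risen and 3 fallen in EIF2A and 2 and 4 in GFP. Shares of all genes called with the block were 45.3 and 44.6% in EIF2A and GFP at 1 h and 66.2 and 67.1% at 3 h. In the unblocked fit over all replicates they were 10.5 and 8.18% at 1 h and 36.2 and 33% at 3 h. Without replicate 1 they were 42 and 39.4% at 1 h. The gene that fell at 1 h was Eif5a, by 0.23 in EIF2A and 0.19 in GFP with the block (adjusted p = 3.64e-04 and 0.00258). Eif5a, which helps ribosomes past stretches of proline and carries the modified lysine hypusine, was at 473.0, 391.1, 385.9 and 440.9 CPM in EIF2A at 3 h, against 602.3, 604.3, 639.1 and 703.0 CPM at 0 h. In GFP it was at 403.3, 402.0, 414.0 and 436.0 CPM at 3 h and at 533.1, 579.2, 604.8 and 593.0 CPM at 0 h. The times did not overlap, and Eif5a fell by 0.59 ± 0.08 in EIF2A and 0.48 ± 0.08 in GFP (adjusted p = 4.72e-06 and 5.98e-05). Eef1g, a subunit of the exchange factor that recharges eEF1A, was at 216.4, 219.8, 222.3 and 240.6 CPM in EIF2A at 3 h, against 265.0, 266.6, 290.0 and 300.9 CPM at 0 h. It fell by 0.32 ± 0.08 in EIF2A and 0.35 ± 0.08 in GFP (0.00262 and 0.00154). In EIF2A this was -0.16 (0.0594) with scaling by library totals. Since 44.2% of the Eef1g windows lie in other genes, chiefly its copy Gm4366, this count is uncertain.

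The most abundant members, Eef1a1 and Eef2, were not called over all replicates in the unblocked fit. Eef1a1, which carries each aminoacyl-tRNA to the ribosome, was at 2987.4, 2739.6, 2713.2 and 3148.2 CPM in EIF2A at 3 h and at 2862.1, 3014.4, 3010.0 and 3412.0 CPM at 0 h. The GFP libraries stood at 3106.4, 2416.1, 2494.4 and 2771.7 CPM at 3 h and 3208.6, 2754.1, 2781.5 and 2779.4 CPM at 0 h. The times overlapped, at -0.09 ± 0.10 and -0.10 ± 0.10 (adjusted p = 0.564 and 0.524). Since 39.4% of the Eef1a1 windows lie in other genes, this count is uncertain. At 1 h Eef1a1 rose with the block by 0.23 in EIF2A and 0.18 in GFP (4.64e-04 and 0.00490), and without replicate 1 it rose by 0.22 in EIF2A (0.0301) and was at 0.17 in GFP (0.0975). Eef2, the translocase, was at 2223.2, 2543.7, 2586.7 and 3199.0 CPM in EIF2A at 3 h and 1968.1, 2385.8, 2574.4 and 2750.2 CPM at 0 h, and in GFP at 2608.5, 2211.0, 2352.8 and 2637.0 CPM at 3 h and 2315.5, 2106.8, 2173.7 and 2183.5 CPM at 0 h. Its log2 fold change was 0.12 ± 0.13 and 0.16 ± 0.13 (0.514 and 0.394), which the block took to 0.0329 and 0.00757. At 1 h Eef2 was at 0.35 and 0.29 (0.0961 and 0.226), and it rose with the block by 0.34 and 0.28 (3.54e-06 and 4.48e-05) and without replicate 1 by 0.38 and 0.28 (0.00282 and 0.0225). Eef1a2, Eef1b2, Eef1d, Eef1e1 and Eef2k were between -0.23 and 0.15 at 3 h and not called. With the block and likewise without replicate 1, Eef1d fell in both constructs, and in GFP Eef1b2 fell and Eef1e1 rose. The release factor genes Etf1 and Gspt1 were between -0.14 and 0.19 at 3 h, and 0 of 2 were called at either time. With the block Gspt1 fell at 3 h by 0.14 in EIF2A and 0.13 in GFP (adjusted p = 0.00868 and 0.0142) and Etf1 rose by 0.19 in GFP (0.00121), and all 3 were also called without replicate 1.

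Of the members, 11 are known from other cells as TOP mRNAs, which start with a pyrimidine tract and whose translation follows mTORC1. At 3 h, 2 rose and 1 fell in each construct, with medians of -0.07 in EIF2A and -0.14 in GFP, and at 1 h 2 rose and 0 fell in each, with medians of 0.23 and 0.07. The 2 that rose are the eIF3 subunit genes Eif3a and Eif3e, and the 1 that fell is Eef1g. The other 8, among them Eef1a1, Eef2 and Pabpc1, were not called at 3 h. Over all genes, the unblocked fit called 36.2 and 33% in EIF2A and GFP at 3 h and 10.5 and 8.18% at 1 h. With the block, 4 rose and 3 fell in EIF2A and 4 rose and 6 fell in GFP at 3 h (66.2 and 67.1% of all genes called). At 1 h 9 and 4 rose and 0 fell (45.3 and 44.6% called).

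The next comparison sets EIF2A against GFP at the same time. Over all 4 replicates, 0 of 44 members were called at 0 h (0.0218% of all genes called), 1 at 1 h (1.02%, 0.69% as higher and 0.334% as lower in EIF2A) and 0 at 3 h (0% called). At an unadjusted p under 0.05 there were 14, 21 and 19, and DESeq2 called 3, 13 and 1. The member called at 1 h was Eif1ax, at 101.2, 129.8, 125.4 and 130.4 CPM in EIF2A and 94.2, 93.2, 96.7 and 96.8 CPM in GFP, with no overlap. Its log2 fold change was 0.35 ± 0.07 (adjusted p = 0.0372). The call was lost without any 1 of the EIF2A or GFP replicates 2 to 4 at 1 h (0.123 to 0.188). Without replicate 1 in all groups it was 0.43 ± 0.05 (1.48e-07).

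Without replicate 1, most members differed between the constructs, as did most genes. At 0 h, 20 were higher and 10 lower in EIF2A than in GFP (64.8% of all 13731 genes called, 31.9% higher and 32.9% lower). At 1 h 24 were higher and 10 lower (70% called, 32.7% higher and 37.3% lower), and at 3 h 21 and 13 (67.6% called, 32.5% higher and 35.1% lower). Of them, 18 were higher at all 3 times, including 6 eIF3 subunits, and 8 were lower at all 3. The share of all genes higher or lower at all 3 times was not computed, so these counts have no background to stand against. In replicate 1 the difference had the opposite sign for 23 of 30, 25 of 34 and 21 of 34 of these members (76.7, 73.5 and 61.8%), and for 77.8, 78.3 and 77.1% of all genes called. Among replicates 2 to 4, the constructs also differed in no_feature, the share of reads that name no gene. At 0 h it was 17.154 to 17.879% in EIF2A and 12.416 to 12.994% in GFP. At 3 h it was 13.295 to 14.861% and 11.128 to 12.522%. Depth at 0 h was 10.523 to 14.799 M in EIF2A and 18.39 to 22.223 M in GFP. EIF2A replicate 1 stood at 12.038% and 18.06 M at 0 h. The part of no_feature and depth in these counts was not tested. The 5 genes described next were chosen after their values were seen.

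Eef1a2 differed most. In EIF2A it was at 31.2, 3.01, 4.01 and 4.33 CPM at 0 h, 36.3, 4.61, 3.80 and 6.80 CPM at 1 h and 29.5, 3.74, 2.81 and 4.44 CPM at 3 h. GFP libraries had 1.46, 27.5, 28.5 and 30.9 CPM at 0 h, 1.94, 31.1, 31.3 and 38.3 CPM at 1 h and 1.25, 25.9, 26.5 and 33.6 CPM at 3 h. Replicate 1 was thus high in the libraries labelled EIF2A and low in those labelled GFP, opposite to replicates 2 to 4 at each time. Without replicate 1 the log2 fold change of EIF2A over GFP was -2.96 ± 0.19, -2.71 ± 0.16 and -2.97 ± 0.17 at 0, 1 and 3 h (adjusted p = 7.48e-11, 3.67e-11 and 1.71e-11). With replicate 1 it was -1.03 ± 1.06 at 0 h (0.543).

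Eif6 was the member highest in EIF2A relative to GFP. At 0 h it was at 149.2, 257.9, 265.7 and 299.5 CPM in EIF2A, against 186.5, 136.5, 142.2 and 138.5 CPM in GFP. Replicates 2 to 4 did not overlap, and replicate 1 ran the other way. Without replicate 1 its difference was 0.98 ± 0.09, 1.17 ± 0.09 and 0.97 ± 0.08 at 0, 1 and 3 h (adjusted p = 8.44e-09, 4.54e-10 and 7.43e-09), and with it 0.69 ± 0.26 at 0 h (0.162). Eif5b was at 299.6, 610.5, 618.5 and 509.0 CPM in EIF2A at 0 h, against 315.3, 352.1, 307.4 and 307.6 CPM in GFP, so replicate 1 showed no such gap. Its differences without replicate 1 were 0.85, 0.92 and 0.65 (2.32e-07, 5.12e-08 and 5.96e-06), and the main value at 0 h was 0.67 ± 0.21 (0.124). Eif5b overlaps Rev1 on the other strand, and the strand setting of the counting is not given in the sources used here. Eif4g2, a scaffold that lacks the eIF4E site, was at 1068.8, 605.0, 578.2 and 564.8 CPM in EIF2A at 1 h, against 938.2, 902.1, 906.9 and 967.9 CPM in GFP. Without replicate 1 its differences were -0.40, -0.67 and -0.50 at 0, 1 and 3 h (1.60e-05, 1.59e-08 and 9.55e-07), and Eif4a2 stood at -0.62, -0.76 and -0.70 (2.03e-05, 1.29e-06 and 3.80e-06). Over all 4 replicates neither was called at any time.

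**Figure D4:**
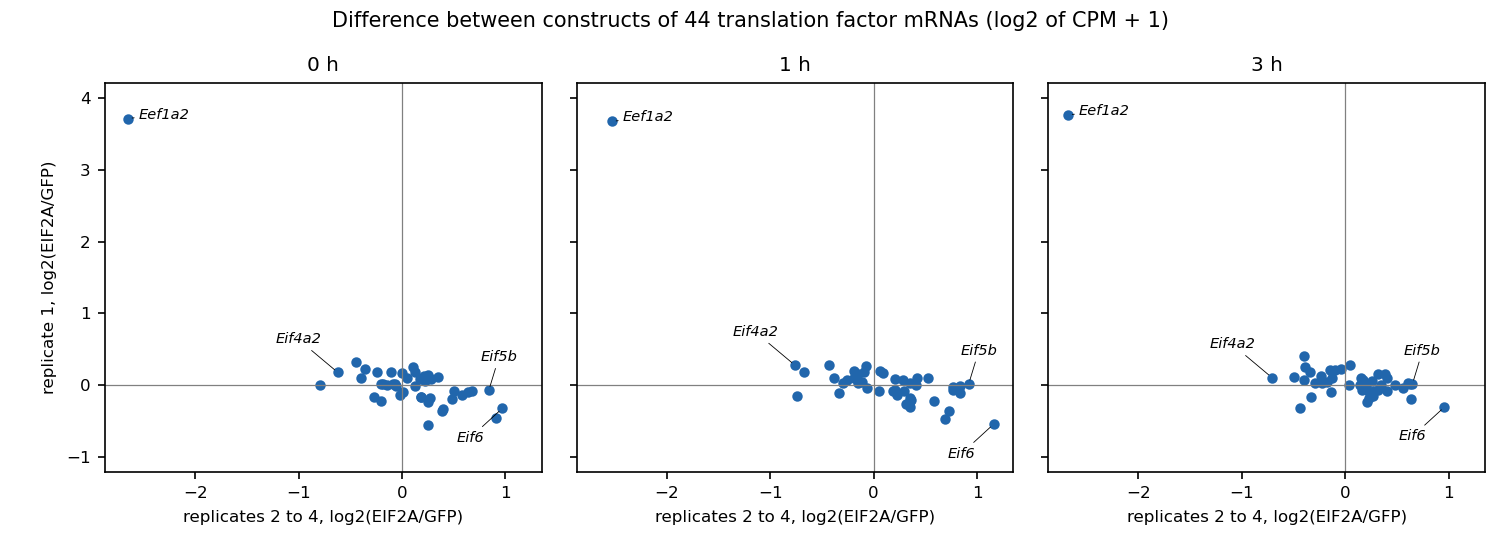
Difference between EIF2A and GFP in replicate 1 (vertical axis) against that in replicates 2 to 4 (horizontal axis), as log2 of CPM + 1, for 44 members at 0, 1 and 3 h. Eef1a2 lies far to the upper left in each panel, at -2.65 and 3.71 at 0 h, and Eif6 to the lower right, at 0.97 and -0.32.

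Whether the response to thapsigargin differed between constructs was tested by the interaction, the response in EIF2A minus that in GFP. Over all replicates 0 of 44 members were called at 1 h and 0 at 3 h by edgeR (0% of all genes called each), with 0 and 1 at an unadjusted p under 0.05 and 0 and 0 called by DESeq2. The block gave 0 members at each time too (0.00727 and 0.0145% called). Without replicate 1, 1 member was called at 1 h (0.816%) and 3 at 3 h (4.12%). Eif3c rose more in EIF2A, by 0.28 ± 0.06 at 1 h and 0.30 ± 0.06 at 3 h (adjusted p = 0.0373 and 0.00927). Eif4ebp1 and Eif1 rose less in EIF2A at 3 h, with interactions of -0.51 ± 0.11 and -0.26 ± 0.07 (0.00886 and 0.0283). Both also started higher in EIF2A at 0 h in replicates 2 to 4, where Eif4ebp1 averaged 111.5 ± 8.77 CPM in EIF2A and 58.8 ± 2.81 CPM in GFP (SD, n = 3 each). At 3 h it averaged 251.3 ± 23.9 CPM in EIF2A and 189.3 ± 4.39 CPM in GFP in those replicates.

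With the block and without replicate 1, 14 of 44 members had a called interaction at 1 h (7.62% of all genes) and 9 at 3 h (14.2%). At 1 h, 6 of the 14 were eIF3 subunits, and 12 had the greater log2 fold change in EIF2A. The values include Eif3g at 0.34, Eif3m at 0.31, Eif3d at 0.28 and Eif3k at 0.25 (adjusted p = 1.23e-04, 0.00238, 4.86e-04 and 0.00537), against Eif4g2 at -0.27 (0.00671) and Eif4ebp1 at -0.22 (0.0209). At 3 h Eif4ebp1 was at -0.52 and Eif3c at 0.30 (1.02e-07 and 7.55e-05). Over all 4 replicates none of these interactions was called (0 by edgeR and 0 by DESeq2, 0 and 1 at an unadjusted p under 0.05), and they rest on 3 replicates per group. Among replicates 2 to 4, same-numbered libraries of a construct correlated at r of -0.026 to 0.22 over time. The block in this fit thus has little pairing behind it.

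Other genes of translation were read from lists of the pathway, chosen by function. At 3 h 36.2% of all genes were called in EIF2A (19.6% higher and 16.6% lower) and 33% in GFP (18.4% higher and 14.6% lower). The unblocked counts below stand against these shares. Counts with the block stand against 66.2% called in EIF2A (32.9% higher and 33.3% lower) and 67.1% in GFP (33.6% higher and 33.5% lower). Among 18 regulators of eIF4E and mTORC1, 7 rose and 4 fell in EIF2A and 5 rose and 3 fell in GFP at 3 h, where the block gave 9 and 5 in GFP. Sesn2, an inhibitor of mTORC1 that senses leucine and responds to ATF4, rose by 1.84 ± 0.10 in EIF2A and 2.03 ± 0.10 in GFP (adjusted p = 1.35e-10 and 5.90e-11). Mknk1, a kinase of eIF4E, rose by 0.87 and 0.85 (1.89e-07 and 2.95e-07), and Mlst8, a subunit of mTORC1, by 0.36 and 0.42 (4.47e-04 and 1.07e-04). Larp1, which binds TOP mRNAs, fell by 0.62 and 0.40 (5.27e-06 and 6.66e-04). Among 7 partners of poly(A) binding, 0 rose and 1 fell in each construct, the nuclear protein gene Pabpn1, by 0.46 and 0.39 (0.0181 and 0.0440). The block gave 1 risen and 3 fallen in EIF2A and 2 and 3 in GFP. Of 9 further initiation helpers, 3 rose and 0 fell in each, or 4 rose and 2 fell in EIF2A and 4 rose and 1 fell in GFP with the block, with Eif1ad at 0.42 and 0.45 (3.49e-05 and 1.80e-05) and the ABC protein gene Abcf2 at 0.52 and 0.35 (0.00132 and 0.0228).

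Of 10 factors of mitochondrial translation, 6 rose and 0 fell in EIF2A and 5 rose and 0 fell in GFP at 1 h, when 6.55 and 5.78% of all genes were called higher. At 3 h, 8 rose and 1 fell in EIF2A and 7 rose and 1 fell in GFP, with medians of 0.71 and 0.53, when 19.6 and 18.4% of all genes were called higher. Gfm1, the mitochondrial translocase, rose by 0.95 in EIF2A and 0.79 in GFP (adjusted p = 1.65e-06 and 1.55e-05), and the release factor Mtrf1l by 1.11 in each (3.92e-05 and 4.71e-05). The initiation factors Mtif2 and Mtif3 rose by 0.66 and 0.73 in EIF2A and by 0.54 and 0.75 in GFP (3.66e-05 and 3.20e-04, then 3.32e-04 and 2.64e-04). The gene that fell was Mtfmt, which formylates the mitochondrial initiator tRNA, by 0.39 and 0.41 (0.0136 and 0.0111). The difference between this list and the cytosolic factors was not tested.

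Of 12 genes in the list on modification of eIF5A and elongation factors, 6 rose and 1 fell in EIF2A and 4 rose and 2 fell in GFP at 3 h, when 36.2 and 33% of all genes were called. The diphthamide genes Dph7, Dph5 and Dph2, which act on the residue of eEF2 that diphtheria toxin attacks, rose by 1.08, 0.65 and 0.49 in EIF2A (adjusted p = 1.75e-06, 1.28e-04 and 3.31e-04) and by 0.85, 0.63 and 0.67 in GFP (3.27e-05, 2.03e-04 and 1.15e-05). Of the same pathway, Dph6 fell by 0.26 in EIF2A and 0.27 in GFP (0.0382 and 0.0350), Dph1 rose by 0.78 in EIF2A (0.00339) and was at 0.49 in GFP (0.0550), and Dph3 was at -0.22 and -0.11 (0.117 and 0.471). Eif5a2, a second eIF5A gene, fell by 1.38 ± 0.46 in GFP (0.0238) and was at -1.15 ± 0.46 in EIF2A (0.0568). With the block, 6 of the 12 rose and 5 fell in EIF2A and 6 rose and 4 fell in GFP (66.2 and 67.1% of all genes called). Of 10 genes of termination, recycling and ribosome rescue, 4 rose and 1 fell in each construct. Zfp598, which marks collided ribosomes, rose by 0.63 and 0.61 (1.31e-05 and 2.20e-05), Pelo, which splits stalled ones, by 0.65 and 0.49 (2.45e-04 and 0.00325), and Gtpbp2 by 0.37 and 0.39 (8.11e-04 and 5.13e-04). Ascc3, a helicase of the same rescue pathway, rose by 0.51 and 0.42 (0.0104 and 0.0319), and the gene that fell was Trmt112, a partner of methyltransferases, by 0.26 and 0.21 (0.0124 and 0.0402). Mtfmt, Dph1, Dph3, Dph6, Eif5a2 and Trmt112 were named after their values were seen.

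**Figure D5:**
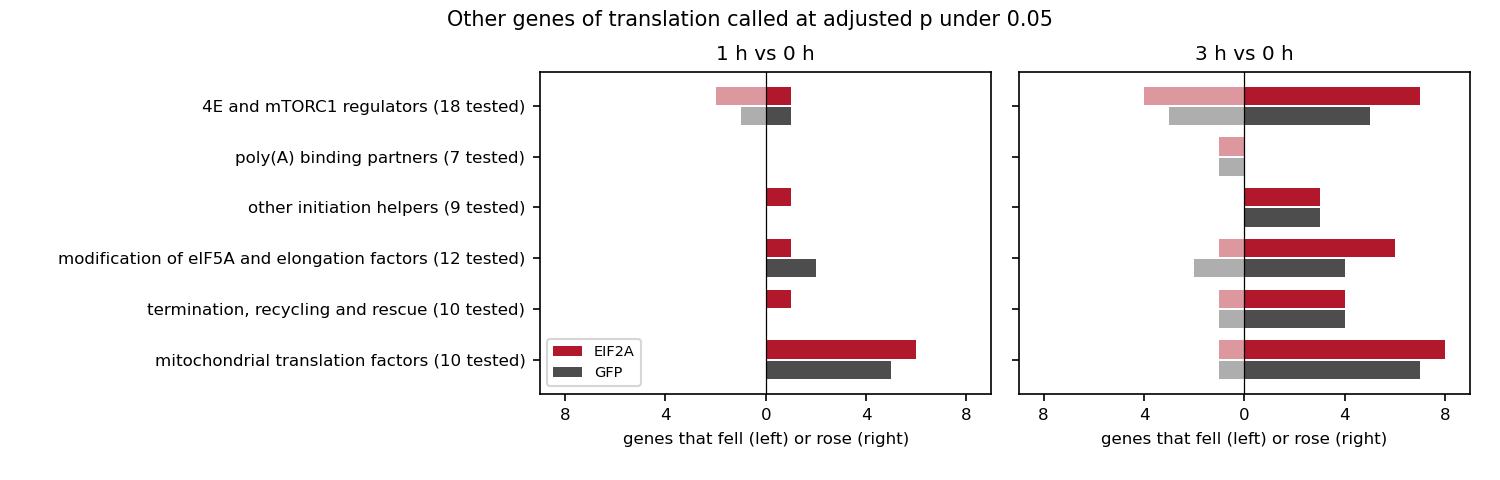
Number of genes that rose (right of 0) or fell (left of 0) at adjusted p under 0.05 in 6 lists of other translation genes, at 1 h and 3 h of thapsigargin against vehicle, in EIF2A (red) and GFP (grey). The bars for mitochondrial factors reach 8 and 7 of 10 genes at 3 h, and those for partners of poly(A) binding reach 1 on the falling side.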

How the data were processed

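The deposited values are raw counts of reads per gene in 24 libraries; per the submitters' processing notes, the authors used bcl2fastq, STAR and the mouse build mm10, and per the labels the kit was TruSeq stranded mRNA. For the counter, the annotation and the strand setting, nothing is stated in the sources used. Lines that name no gene (no_feature, 10.7 to 17.9%, and ambiguous, 0.518 to 0.592%) were left out. Genes passed a filter on low counts (edgeR filterByExpr, minimum count 10, minimum total 15), which left 13761. The test was edgeR's robust quasi-likelihood test (version 4.0.16, run in R 4.3.3) on 6 group means over all libraries, with TMM factors and Benjamini-Hochberg adjustment over all genes. It was also run on simulated counts for GFP at 3 h against 0 h alone. Those counts carried no replicate effect, so that run does not cover the way replicate 1 departs from the others. SE is the log2 fold change divided by the square root of F. DESeq2 1.42.0, other scaling, no filter, a replicate block and left-out libraries were the alternatives.

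Deviations from group means correlated between same-numbered libraries over time within a construct (r 0.51 to 0.933), so the numbers were taken as pairs there. That pairing rests mostly on replicate 1: among replicates 2 to 4 alone r was -0.026 to 0.22. Between constructs r was -0.663 to -0.159, or -0.018 to 0.313 among replicates 2 to 4 alone, and they were not taken as pairs.

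Full values are given for at most 12 called members per contrast by smallest p, and at 3 h for Eif4ebp1, Eif4e, Eif4a1, Eif4g1, Eef1a1, Eef2 and Pabpc1, with at most 4 called genes from each further list. Members and lists were chosen with earlier results of these data known. Shares of 50-base windows were computed from annotated exons.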

Additional observations from a re-analysis of the deposited data

Results flagged for a closer look

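In 168 groups of 4 libraries (28 named members), 24 had a library far from the other 3 by Dixon's test, where chance gives about 5% of groups, or 1 in 20. The named members include Eef1a2, Eif6, Eif5b, Eif4g2 and Eif4a2, which were chosen after their values were seen. Members also share the same libraries, so setting these flags against the chance rate is not a test. Of the flagged libraries, 20 were replicate 1 and 4 were others. Values are in CPM.

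Among labelled EIF2A libraries at 1 h, replicate 1 stood apart for Eif1 at 660.0, Eif1ax at 101.2, Eif4e at 127.3, Eif4e2 at 74, Eif4e3 at 47.4 and Eif4g2 at 1068.8. At 0 h it stood apart for Eef1a2 at 31.2, and at 3 h for Eif5b at 335.2. Among GFP libraries at 0 h, replicate 1 stood apart for Eif1 at 836.1, Eif4a2 at 280.1, Eif4ebp1 at 112.4, Eif4g1 at 339.7, Eif6 at 186.5, Eef1a1 at 3208.6 and Eef1a2 at 1.46. At 1 h it did so for Eif1 at 791.0, Eif3c at 427.3, Eif4ebp1 at 111.2 and Eef1a2 at 1.94, and at 3 h for Eef1a2 at 1.25. The others were Eif1a in EIF2A replicate 4 at 0 h (83) and in GFP replicate 2 at 3 h (103.6), Eif4e in GFP replicate 4 at 0 h (122.3) and Pabpc1 in GFP replicate 4 at 3 h (701.6).

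The response to thapsigargin differed between constructs, EIF2A minus GFP, in edgeR's fit without replicate 1. Eif3c had an interaction of 0.28 at 1 h and 0.30 at 3 h, Eif1 of -0.26 and Eif4ebp1 of -0.51 at 3 h (adjusted p = 0.0373, 0.00927, 0.0283 and 0.00886). With all replicates none of these was called.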

How the results depend on the processing

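The 46 single-gene calls over all contrasts kept their direction under the alternatives run. Of 828 such values, 690 kept the call and 138 lost it. Members not called at first are not among these, and those that gained a call enter only the counts that follow. The members called with the replicate block were 29 in EIF2A and 22 in GFP at 1 h, and 27 and 34 at 3 h (45.3, 44.6, 66.2 and 67.1% of all genes called). Between constructs, whose numbers do not pair, the block gave 7, 17 and 5 at 0, 1 and 3 h (9.69, 21 and 7.66% of all genes called). Block and no replicate 1 together gave 32 in EIF2A and 28 in GFP at 1 h, 34 and 37 at 3 h, 36, 38 and 41 between constructs, and 14 and 9 interactions at 1 and 3 h. In the same order, 51.5 and 51.9%, 68.2 and 70.1%, 70, 74.5 and 73.1%, and 7.62 and 14.2% of all genes were called.

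DESeq2 called 3, 13 and 1 members between constructs at 0, 1 and 3 h. At 1 h, RLE scaling gave 3, library totals alone 0 and no filter 0. Leaving out 1 replicate number gave 1 to 24 calls in EIF2A and 0 to 17 in GFP at 1 h, 10 to 23 and 7 to 31 at 3 h, 0 to 30, 0 to 34 and 0 to 34 between constructs, and 0 to 1 and 0 to 3 interactions, the highest always without replicate 1. Leaving out 1 library gave 5 to 14 in EIF2A and 2 to 5 in GFP at 1 h, 13 to 20 and 17 to 19 at 3 h, 0 to 11, 0 to 25 and 0 to 19 between constructs, and 0 interactions. The 14 came without EIF2A replicate 1 at 1 h and the 20 without EIF2A replicate 1 at 3 h. The highest counts between constructs came without the EIF2A replicate 1 library of that time. The cause of these changes was not tested.

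Of calls at 1 h, 1 of 6 in EIF2A, that of Eif3c, and 0 of 5 in GFP were kept whichever replicate number was left out. Of calls at 3 h, 10 of 16 in EIF2A and 6 of 18 in GFP were kept. Those kept in GFP at 3 h were Eif3a, Eif3c, Eif3d, Eif4a1, Eif4ebp1 and Eif5a. Counts are of reads without molecular identifiers, and 4 libraries a group limit what could be detected.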
